A study of Gallus gallus with 28 samples.

Results

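MSMB, ABI3BP, USP40 and MGP are 4 chicken genes picked, out of 17684 features in the table, and chosen by their RPKM, which stood above control in the basilar papilla at 120, 144 and 168 h after damage by streptomycin. The basilar papilla is the hearing epithelium of birds. Streptomycin is an aminoglycoside antibiotic that kills its hair cells, and birds, unlike mammals, can replace them. Treated papillae were dissected, held in streptomycin for 24 h and sampled at 0, 24, 48, 72, 96, 120, 144 and 168 h of recovery. Control papillae, labelled with no treatment, were sampled at the same 8 time points. Whether the 0 h controls had also been held for 24 h is not stated here. If they had not, treated papillae may have been further from dissection than controls at every time point. Differences between the arms, at 0 h and later, therefore cannot tell streptomycin apart from time since dissection. There were 15 treated and 13 control samples in 16 groups, of which 12 held 2 samples and 4 held 1 (treated at 96 h, controls at 72, 96 and 120 h). The submitters call the samples biological but give no age or strain, and nothing says whether a sample was 1 papilla or a pool, or whether 2 samples shared an animal. The p-values therefore cover the spread among these samples and no more.

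The 4 genes belong to no common pathway. MSMB encodes beta-microseminoprotein, a small secreted protein rich in cysteine that is best known from human seminal fluid and mucosal secretions, where it binds proteins of the CAP family. ABI3BP encodes a secreted protein of the extracellular matrix, first found as a binding partner of ABI3, a regulator of the actin cytoskeleton. MGP encodes matrix Gla protein, which is carboxylated by a vitamin K-dependent enzyme and, in mice, keeps cartilage and vessel walls from calcifying. USP40 encodes a ubiquitin-specific protease, a member of a large family of enzymes that take ubiquitin off other proteins.

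The level of each gene is given in RPKM, the reads per kilobase of gene per 1 M mapped reads that the authors computed. The authors list between 16.48 and 38.17 M alignments for a library, with 19.85 M as the median. At 0 to 48 h the range was 19.18 to 28.95 M in treated and 19.29 to 35.23 M in control libraries, and at 120 to 168 h it was 16.48 to 22.08 M and 16.69 to 19.45 M. Markers of hair cells summed to 7.26 to 30.6 RPKM in treated libraries and 447 to 977 RPKM in control libraries at 0 to 48 h, with 8 of 8 measured, 8 lower and 0 higher. Markers of supporting cells summed to 1059 to 1891 RPKM in treated and 898 to 1979 RPKM in control libraries at those times, with 7 of 8 measured, 6 higher and 1 lower. The lower one, TECTB, weighed most in the sum, at a mean of 736 RPKM in treated and 1276 RPKM in control libraries. GJB6, 1 of the 6 higher, averaged 481 and 75.3 RPKM. Over all features tested, 28.4% were called higher and 24.3% lower at 0 to 48 h. The samples are whole tissue, so fewer cells of a type and less RNA per cell cannot be told apart.

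All 4 genes differed from control at some time before 120 h, and 3 of them passed as higher before then. MSMB was higher in treated papillae from 24 h on and ABI3BP from 48 h on. USP40 was higher at 0 h, lower at 24 h and higher again over 72 and 96 h. MGP was lower at 24 h and had no call in favour of treated papillae at any time up to 96 h. Tests were made only on the 17 samples at 0 to 96 h, since the values at 120 to 168 h chose the genes. They are limma tests on log2(RPKM + 1), adjusted over 11910 features, and a gene is said to pass at an adjusted p under 0.05. All 4 genes passed the filter on low values, which asked for RPKM of at least 1 in at least 2 of the 17 samples. For USP40 and MGP this held in 9 of 9 treated and 8 of 8 control samples, for MSMB in 7 of 9 and 6 of 8, and for ABI3BP in 5 of 9 and 3 of 8.

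**Figure D1:**
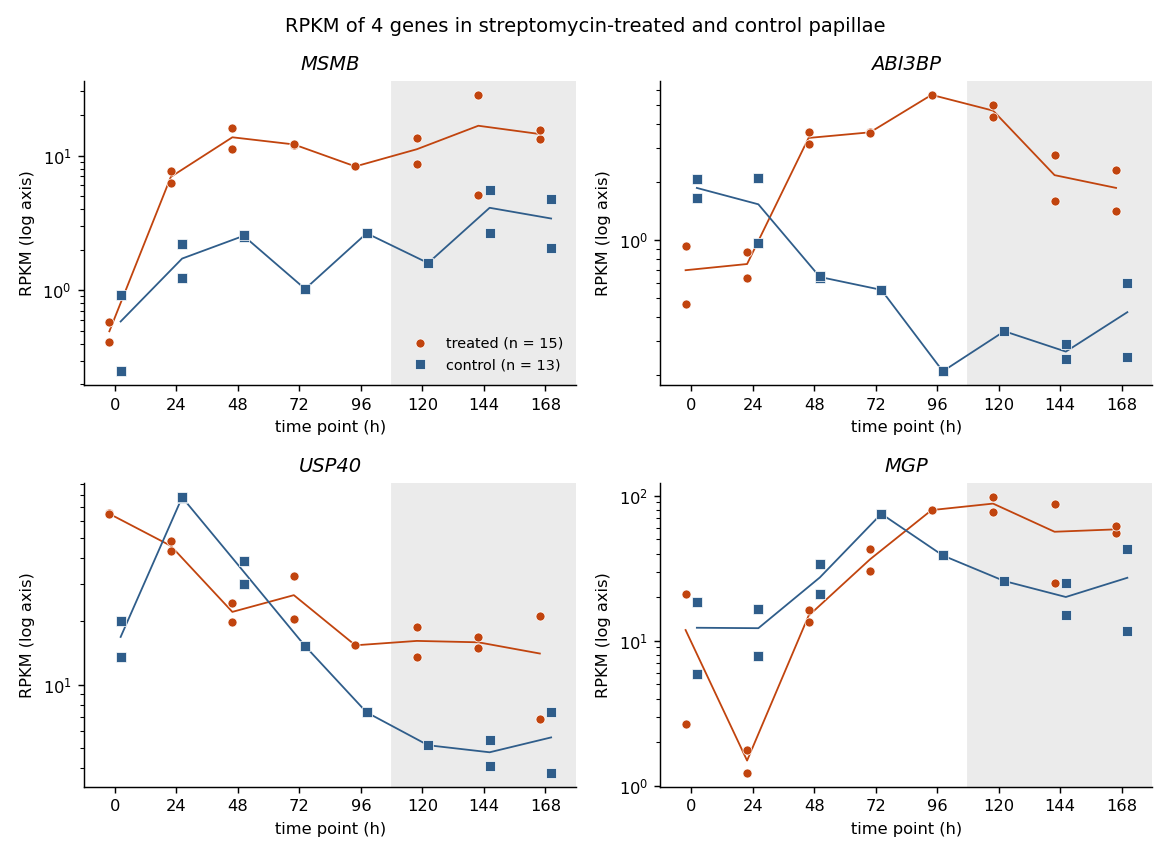
RPKM (log axis) of MSMB, ABI3BP, USP40 and MGP against time point (h), with 1 point for each treated (circles, n = 15) and control (squares, n = 13) sample and lines through the group means. The shaded times chose the genes. The MSMB lines part after 0 h and the ABI3BP lines cross between 24 and 48 h, while those of USP40 cross between 0 and 24 h and again between 48 and 72 h, and those of MGP cross between 72 and 96 h.

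At the end of treatment MSMB, the secreted beta-microseminoprotein gene, was at its lowest mean in both arms. At 0 h it stood at 0.415 and 0.576 RPKM in treated samples, against 0.922 and 0.250 RPKM in control samples. The arms overlapped. At 24 h it stood at 7.69 and 6.20 RPKM in treated samples, against 2.21 and 1.23 RPKM in control samples. At 48 h it stood at 11.2 and 16.1 RPKM in treated samples, against 2.49 and 2.57 RPKM in control samples. At 24 and 48 h the arms did not overlap, and every sample of both arms lay above the range of its own arm at 0 h. At 72 h the treated samples had 11.9 and 12.3 RPKM and the lone control sample 1.02 RPKM. At 96 h the lone treated sample had 8.30 RPKM and the lone control sample 2.65 RPKM. The treated level at these times lay within the range it had already reached at 24 and 48 h.

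The difference in MSMB between treated and control papillae was -0.05 ± 0.25 (SE) at 0 h (limma adjusted p = 0.896), 1.57 ± 0.25 at 24 h (adjusted p = 0.00045) and 2.03 ± 0.25 at 48 h (adjusted p = 9.15e-05). It was 2.69 ± 0.30 at 72 h (adjusted p = 8.70e-05) and 1.35 ± 0.35 at 96 h (limma adjusted p = 0.0492), where each arm has 1 sample that is assumed to vary like the other groups. The call at 96 h ended with a pseudocount of 0.1 (adjusted p = 0.188), with no filter (0.0935), with rescaled libraries (0.0893) and with all 28 samples in the fit (0.364). In treated samples MSMB rose within the first day, as 24 h minus 0 h was 2.41 ± 0.25 (limma adjusted p = 0.000667), a step chosen after its values were seen. Over all features 0.73% were called higher and 1.06% lower in treated samples between these times. At 48 h treated MSMB stood higher than at 24 h, with no overlap, but this step of 0.87 ± 0.25 did not pass (limma adjusted p = 0.0952).

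At 120 to 168 h, the times that chose it, MSMB stood higher in treated samples by choice. At 120 h it had 8.70 and 13.6 RPKM in treated samples, against 1.59 RPKM in the control sample. At 144 h it had 5.06 and 28.2 RPKM in treated samples, against 2.64 and 5.54 RPKM in control samples. At 168 h it had 13.3 and 15.5 RPKM in treated samples, against 2.06 and 4.76 RPKM in control samples. The arms overlapped at 144 h, where 1 treated sample was the lowest treated sample from 24 h on. Ranked by mean, the 7 treated groups from 24 to 168 h took the 7 highest places among the 16 groups, the 8 control groups filled the next 8 places, and treated papillae at 0 h came last. Among the treated groups from 48 to 168 h with 2 samples each, neighbours in this order had ranges that overlapped.

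ABI3BP, the matrix protein gene, was a low gene that moved in opposite directions in treated and control papillae. At 0 h it stood at 0.924 and 0.467 RPKM in treated samples, against 1.66 and 2.06 RPKM in control samples. At 24 h it stood at 0.633 and 0.865 RPKM in treated samples, against 2.09 and 0.963 RPKM in control samples. Treated samples were the lower at both times, with no overlap. At 48 h it stood at 3.14 and 3.60 RPKM in treated samples, against 0.631 and 0.652 RPKM in control samples. At 72 h the treated samples had 3.64 and 3.58 RPKM and the control sample 0.55 RPKM. At 96 h the treated sample had 5.64 RPKM, the highest of the 28, and the control sample 0.208 RPKM, the lowest of the 28.

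The ABI3BP difference was -0.76 ± 0.22 at 0 h (limma adjusted p = 0.0246) and -0.50 ± 0.22 at 24 h (adjusted p = 0.0959). The call at 0 h ended without treated replicate 2 (-0.567, adjusted p = 0.195), without control replicate 1 (-0.865, adjusted p = 0.0655) and without control replicate 2 (-0.66, adjusted p = 0.136). The 24 h difference passed without control replicate 2 of 24 h (-0.826, limma adjusted p = 0.0189). From 48 h the sign was the other way, at 1.41 ± 0.22 (adjusted p = 0.000707), 1.57 ± 0.27 at 72 h (adjusted p = 0.00265) and 2.46 ± 0.32 at 96 h (limma adjusted p = 0.000725). These differences understate the fold of a gene this low, and with a pseudocount of 0.1 they became 2.22, 2.51 and 4.22. Between 24 and 48 h the ABI3BP difference moved by 1.91 ± 0.32 (limma adjusted p = 0.0318), a change chosen after its values were seen. In that comparison 0.193% of features were called higher and 0% lower. The ABI3BP call ended without any of 6 of the 8 libraries (1.58 to 1.99).

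At 120 h ABI3BP had 5.0 and 4.35 RPKM in treated samples, against 0.336 RPKM in the control sample. At 144 h it had 1.58 and 2.74 RPKM in treated samples, against 0.287 and 0.240 RPKM in control samples. At 168 h it had 2.31 and 1.4 RPKM in treated samples, against 0.595 and 0.248 RPKM in control samples. The arms did not overlap at any of these times, which chose the gene for standing above control. The treated means at 144 and 168 h (2.16 and 1.86 RPKM) lay below those at 72, 96 and 120 h (3.61, 5.64 and 4.68 RPKM), and the 168 h treated range overlapped that of control papillae at 0 h. The 6 lowest group means were those of the control groups from 48 to 168 h, of which those from 120 h on took part in the choice.

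USP40, the ubiquitin-specific protease gene, was at its highest at the first times and its arms crossed within a day. At 0 h it stood at 65.3 and 64.6 RPKM in treated samples, against 13.6 and 20.1 RPKM in control samples. At 24 h it stood at 43.2 and 48.2 RPKM in treated samples, against 77.1 and 78.4 RPKM in control samples. At 48 h it stood at 24.5 and 19.8 RPKM in treated samples, against 38.9 and 30.1 RPKM in control samples. The arms did not overlap at any of the 3 times, with treated samples above control at 0 h and below at 24 and 48 h. At 72 h the treated samples had 32.7 and 20.5 RPKM and the control sample 15.2 RPKM. At 96 h the treated sample had 15.4 RPKM and the control sample 7.38 RPKM.

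The USP40 difference was 1.91 ± 0.23 at 0 h (limma adjusted p = 8.83e-05) and -0.76 ± 0.23 at 24 h (adjusted p = 0.0190). The 24 h call ended with all 28 samples in the fit (adjusted p = 0.114), without treated replicate 1 (-0.68, adjusted p = 0.0802), without control replicate 1 (-0.768, adjusted p = 0.0606) and without control replicate 2 (-0.744, limma adjusted p = 0.072). The 24 h difference minus the 0 h difference, a change chosen after its values were seen, was -2.67 ± 0.32 (limma adjusted p = 0.00146). In that comparison 6.11% of features were called lower and 3.96% higher. The size of this USP40 change did not depend on any 1 library, at -2.93 to -2.40 with each library left out. In control papillae USP40 rose by 2.17 ± 0.23 between 0 and 24 h (limma adjusted p = 0.000173, a step chosen after its values were seen), where 14.5% of all features were called higher and 12.2% lower. In treated papillae the same step was -0.50 ± 0.23 (limma adjusted p = 0.347), where 0.73% of features were called higher and 1.06% lower. In the differences at 0 h and at 24 h, and in the change between them, streptomycin and time since dissection cannot be told apart.

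At 48, 72 and 96 h the USP40 differences of -0.61 ± 0.23, 0.73 ± 0.28 and 0.97 ± 0.32 did not pass (limma adjusted p = 0.0596, 0.0978 and 0.120). With a replicate block the 48 h difference passed (-0.611, limma adjusted p = 0.00922). At 72 h only treated papillae have a replicate 2, so the block there acts as leaving it out, and both gave 1.06. At 96 h the block adjusts nothing, so the difference stayed at 0.967 and only its SE fell, from 0.32 to 0.206. The block therefore adds no separate evidence for USP40 at 72 or 96 h. At 48 h the difference passed with rescaled libraries too (-0.64, limma adjusted p = 0.046). Averaged over 72 and 96 h it was 0.85 ± 0.21 (limma adjusted p = 0.0145), but did not pass with all 28 samples in the fit (adjusted p = 0.0916).

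At the late times both arms of USP40 were far below their first levels. At 120 h it had 13.5 and 18.8 RPKM in treated samples, against 5.15 RPKM in the control sample. At 144 h it had 16.8 and 14.9 RPKM in treated samples, against 5.44 and 4.09 RPKM in control samples. At 168 h it had 21.3 and 6.84 RPKM in treated samples, against 7.41 and 3.80 RPKM in control samples. The arms overlapped at 168 h, where 1 treated sample lay within the control range. The treated mean changed little between 96 h and 168 h (15.4, 16.1, 15.9 and 14.1 RPKM), and all 4 values lay below the treated mean at 0 h of 64.9 RPKM. At the late times, which chose it, USP40 stood above control by choice, at a level below that of treated papillae at 0 h.

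In the reference gene table of RefSeq for the chicken assembly GRCg7b, 1 locus that is not in the expression table overlaps USP40, and the strand of the libraries is not given in the sources used here. Reads from the 2 loci cannot be told apart here.

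MGP, the matrix Gla protein gene, had the largest SE of the 4 genes in each test, and was the last to stand above control. At 0 h it stood at 21.1 and 2.68 RPKM in treated samples, against 18.7 and 5.95 RPKM in control samples, where replicate 2 was the lower in both arms. At 24 h it stood at 1.23 and 1.76 RPKM in treated samples, against 7.81 and 16.6 RPKM in control samples. At 48 h it stood at 16.3 and 13.5 RPKM in treated samples, against 33.8 and 20.9 RPKM in control samples. Treated samples were below control at 24 and 48 h with no overlap. At 72 h the treated samples had 42.9 and 30.1 RPKM and the control sample 75.2 RPKM, the highest control value of the series. At 96 h the treated sample had 79.7 RPKM and the control sample 38.8 RPKM.

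The MGP difference was -0.38 ± 0.66 at 0 h (limma adjusted p = 0.712) and -2.33 ± 0.66 at 24 h (adjusted p = 0.0153). The 24 h call ended with no filter (adjusted p = 0.0569), without treated replicate 1 (-2.17, adjusted p = 0.0697) and without control replicate 2 (-1.83, limma adjusted p = 0.114). The differences of -0.80 ± 0.66 at 48 h, -1.04 ± 0.81 at 72 h and 1.02 ± 0.94 at 96 h did not pass (limma adjusted p = 0.392, 0.416 and 0.652). With a replicate block the 48 h value passed (-0.803 ± 0.25, limma adjusted p = 0.0295).

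At 120 h MGP had 98.9 and 78.0 RPKM in treated samples, against 25.8 RPKM in the control sample. At 144 h it had 25.1 and 88.0 RPKM in treated samples, against 15.2 and 24.9 RPKM in control samples. At 168 h it had 55.8 and 61.7 RPKM in treated samples, against 42.8 and 11.7 RPKM in control samples. The arms did not overlap at these times, which chose MGP for standing above control. At 144 h the lower treated and the higher control sample were close. The treated sample that was low at 144 h was replicate 1, which was also the lower of the pair for MSMB and ABI3BP. The highest mean was that of treated papillae at 120 h (88.4 RPKM) and the lowest that of treated papillae at 24 h (1.49 RPKM).

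Markers of mesenchyme and cartilage, tissues in which MGP is known to be made, were followed beside it, with those of smooth muscle and pericytes. Their part in the MGP result was not tested. Mesenchyme markers (9 of 10 measured, 0 at 0 RPKM) summed to 32.4 and 42.7 RPKM in treated samples at 24 h, against 70.9 and 76.2 RPKM in control samples. At 72 and 96 h they summed to 97.0 to 267 RPKM in treated and 216 to 422 RPKM in control libraries. Their median difference was -1.48 at 72 h and 0.26 at 96 h, where MGP stood at -1.04 and 1.02. The control sample was a lone one at both times, and the treated sample at 96 h. At 120 to 168 h they summed to 205 to 348 RPKM in treated and 143 to 439 RPKM in control libraries. These arms overlapped. Pooled over the same times, the arms of MGP overlapped too (25.1 to 98.9 RPKM in treated and 11.7 to 42.8 RPKM in control). Over 0 to 48 h, 7 of the 9 mesenchyme markers tested were lower and 0 higher, with a median of -0.69, where 24.3% of all features were called lower and 28.4% higher. Examples were the collagen genes COL1A1 (-1.21 ± 0.18) and COL1A2 (-0.94 ± 0.20) and the matrix gene POSTN (-0.89 ± 0.22). Cartilage markers (10 of 11 measured) summed to 20.6 to 36.75 RPKM in treated and 36.79 to 62.9 RPKM in control libraries at 120 to 168 h, so the highest treated and the lowest control sum nearly met. Most of the markers averaged lower in treated libraries at these times, among them COL9A1, ACAN, COMP, MATN3 and HAPLN1. Directions differed among 4 others that were picked after their values were seen. COL9A3 averaged 3.62 RPKM in treated and 18.7 RPKM in control libraries, and CHAD 1.73 and 7.67 RPKM. COL2A1 averaged 11.1 RPKM in treated and 5.21 RPKM in control libraries, and EPYC 3.80 and 3.06 RPKM, the same direction as MGP. Of the 9 cartilage markers tested, 4 were lower at 0 to 48 h and 1 higher (median -0.42, beside the same shares of all features), with HAPLN1, a link protein gene of cartilage matrix, at -1.19 ± 0.13. The higher count ran from 0 to 1 over 19 alternatives. The cartilage median was -1.08 at 72 h and -0.29 at 96 h. MATN1, a cartilage matrix gene, was listed at or near 0 RPKM throughout. Of the smooth muscle and pericyte markers, 5 of 6 were measured. At 24 h they summed to 3.125 and 3.137 RPKM in treated samples, against 12.19 and 19.05 RPKM in control samples. In those treated samples 3 of the 5 averaged under 1 RPKM. Their sums at 120 to 168 h overlapped (29.9 to 54.2 RPKM in treated and 31 to 55.3 RPKM in control libraries). Of 4 tested at 0 to 48 h, 2 were lower and 1 higher (median -0.55, beside the same shares). The higher count ran from 0 to 1 over 19 alternatives. The median of these markers was 0.03 at 72 h and 0.28 at 96 h.

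**Figure D2:**
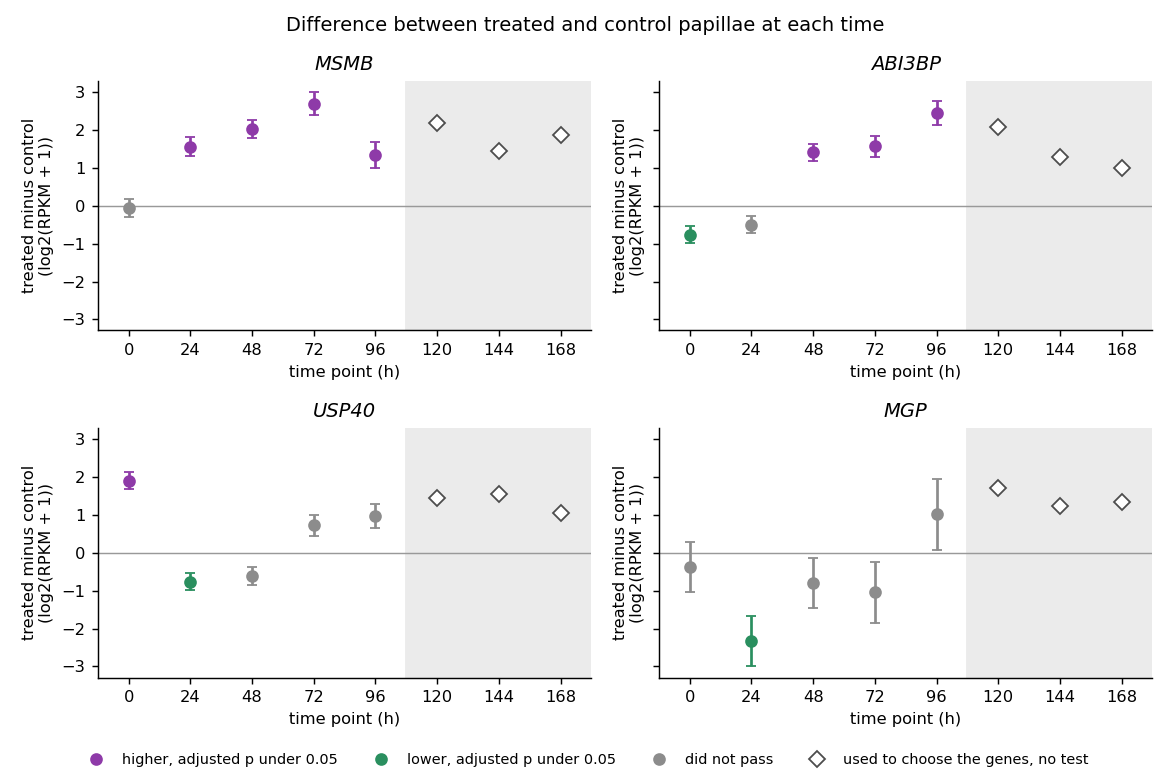
Treated minus control difference on the log2(RPKM + 1) scale against time point (h) for each gene. Filled points with SE bars are fitted differences at 0 to 96 h (purple passes higher, green passes lower, grey did not pass), and open diamonds at 120 to 168 h are differences of group means that chose the genes and have no test. MSMB passes at 24, 48, 72 and 96 h and ABI3BP passes below 0 at 0 h and above 0 at 48, 72 and 96 h. USP40 passes above 0 at 0 h and below 0 at 24 h, and MGP passes below 0 at 24 h.

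Counted by time, 1 of the 4 genes was called higher and 1 lower at 0 h, where 14.1% and 11.7% of all features were. At 24 h 1 was higher and 2 were lower, where 19.1% and 19.2% of features were. At 48 h 2 were higher (13.8% of features, with 14.5% lower), at 72 h 2 (5.47%) and at 96 h 2 (1.86%), with 0 lower at these 3 times by limma. Over all features, 8.08% were called lower at 72 h and 2.12% at 96 h. By limma's p before adjustment, under 0.05, 1 of the 4 was lower at 48 h and 0 at 72 and 96 h. At 120 to 168 h, 4.31% of 12195 features were called higher and 15.1% lower, a share that says nothing of the 4 genes since these samples chose them. The split over all features was 525 higher and 1844 lower, and 1154 and 1442 with rescaled libraries. As a description, their average log2 differences over 120, 144 and 168 h were 1.84 for MSMB, 1.46 for ABI3BP, 1.36 for USP40 and 1.43 for MGP.

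Averaged over 0, 24 and 48 h, MSMB was higher (1.18 ± 0.14, limma adjusted p = 2.66e-05) and MGP lower (-1.17 ± 0.38, adjusted p = 0.0212), where 28.4% of features were called higher and 24.3% lower. The averages of ABI3BP (0.05 ± 0.13, adjusted p = 0.764) and USP40 (0.18 ± 0.13, limma adjusted p = 0.260) did not pass and joined times of opposite sign. The MGP call ended with no filter (adjusted p = 0.0699) and without control replicate 1 of 0 h (-0.92, adjusted p = 0.0653), control replicate 2 of 24 h (-1.0, adjusted p = 0.0626) or control replicate 1 of 48 h (-1.06, limma adjusted p = 0.0582). Without treated replicate 2 of 0 h it was -0.739 (limma adjusted p = 0.041). Averaged over 72 and 96 h, MSMB (2.02 ± 0.23, adjusted p = 6.95e-05), ABI3BP (2.02 ± 0.21, adjusted p = 3.15e-05) and USP40 were higher, 3 of 4 where 9.98% of features were called higher and 9.29% lower. MGP stood at -0.01 ± 0.62 (limma adjusted p = 0.991).

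The change over time within each arm showed which arm moved. In treated papillae, 72 and 96 h minus 0 and 24 h was 1.68 ± 0.19 for MSMB (limma adjusted p = 9.69e-05), 1.69 ± 0.18 for ABI3BP (adjusted p = 5.54e-05) and 3.53 ± 0.52 for MGP (adjusted p = 0.000449). USP40 fell by 1.4 ± 0.18 (limma adjusted p = 0.00018). So 3 of the 4 rose and 1 fell, where 19.9% of features rose and 13.9% fell. In control papillae MGP rose by 2.19 ± 0.57 (adjusted p = 0.0162) and ABI3BP and USP40 fell by 0.95 ± 0.19 (adjusted p = 0.00378) and 1.67 ± 0.19 (adjusted p = 0.000111), where 12.2% of features rose and 10.6% fell. The early control average of USP40 joined 13.6 and 20.1 RPKM at 0 h with 77.1 and 78.4 RPKM at 24 h. The control sample at 72 h (15.2 RPKM) lay within the 0 h range. The control change of MSMB, 0.42 ± 0.21, did not pass (limma adjusted p = 0.184). Its early control average joined means of 0.586 RPKM at 0 h and 1.72 RPKM at 24 h. Between those times control MSMB rose by 0.79 ± 0.25 (limma adjusted p = 0.0324), a step chosen after its values were seen. There 14.5% of features were called higher and 12.2% lower. With each library left out this step ran from 0.476 to 1.1. With no filter the control rise of MGP did not pass (adjusted p = 0.0585).

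**Figure D3:**
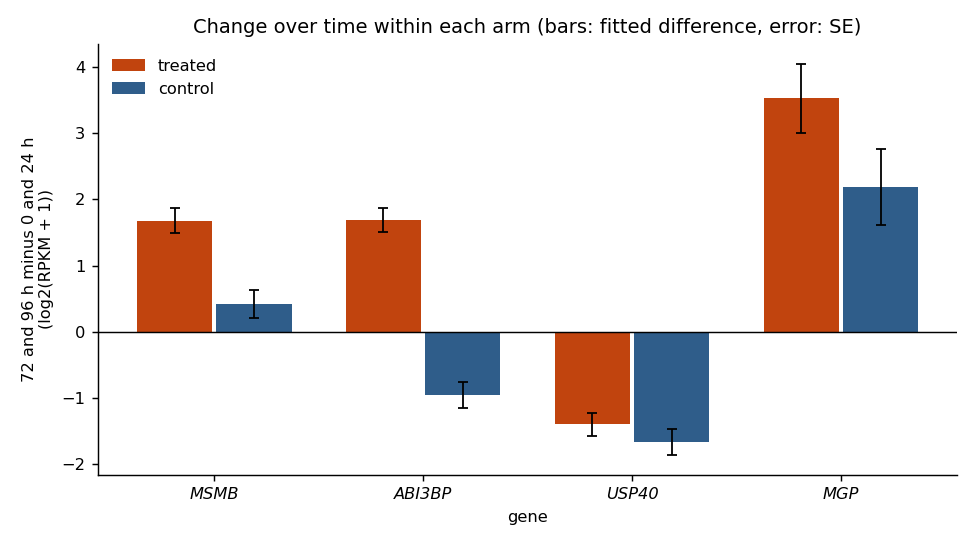
Fitted change from 0 and 24 h to 72 and 96 h on the log2(RPKM + 1) scale in treated (left bar) and control (right bar) papillae, with SE bars. ABI3BP has bars of opposite sign, USP40 falls in both arms and MGP rises in both. The early average of USP40 in control papillae joins a low level at 0 h with a high one at 24 h.

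The time change differed between the arms for ABI3BP, by 2.65 ± 0.26 (limma adjusted p = 0.000213), and for MSMB, by 1.27 ± 0.29 (adjusted p = 0.0167), where 6.69% of features were called higher and 3% lower. Over all features 797 were higher and 357 lower, and with rescaled libraries 997 and 756. The MSMB call ended with a pseudocount of 0.1 (adjusted p = 0.073) and with all 28 samples in the fit (adjusted p = 0.183). The early differences of USP40 were of opposite sign (1.91 at 0 h and -0.76 at 24 h). Its time change therefore cannot show that the arms changed alike. The time changes of USP40 (0.27 ± 0.26, adjusted p = 0.557) and MGP (1.34 ± 0.78, limma adjusted p = 0.294) were not shown to differ between the arms. With a replicate block that of MGP passed (1.47, adjusted p = 0.00916), as it did without treated replicate 1 of 0 h (1.99, limma adjusted p = 0.0461).

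The 4 genes did not share a pattern across the 28 samples. Pearson correlations of log2(RPKM + 1) between pairs of them ran from -0.413 (USP40 and MGP) to 0.576 (MSMB and ABI3BP), a description over samples that share a time course. Each gene was then set against 8869 named features whose RPKM averaged 1 or more. Closest to MSMB were OSGIN1 (r = 0.780), SYT16 (0.756), CDV3 (0.754), TTR (0.750) and EDNRB2 (0.731). Closest to ABI3BP were EGFL7 (r = 0.825), PENK (0.778), DDT (0.768), HAS2 (0.758) and PGM5 (0.737). HAS2 encodes a hyaluronan synthase and PENK the precursor of enkephalin peptides.

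Closest to USP40 were MARK3 (r = 0.947), POF1B (0.939), TRIO (0.932), PTBP2 (0.931) and EIF1B (0.928), the highest correlations of the 4 genes. POF1B, a gene of epithelial cells, averaged 180 RPKM in treated and 144 RPKM in control papillae at 0 to 48 h, and 96.5 RPKM and 59.5 RPKM at 120 to 168 h. Closest to MGP were the protease gene MMP27 (r = 0.868), POSTN (0.863), CHST15 (0.850), FNDC1 (0.845) and LUM (0.842). POSTN and LUM, matrix genes on the mesenchyme list, averaged 39.3 and 11.9 RPKM in treated and 33.0 and 8.15 RPKM in control papillae at 120 to 168 h. MGP, chosen on these same samples, averaged 67.9 ± 26.4 RPKM in treated and 24.1 ± 12.1 RPKM in control papillae (SD, n = 6 and 5), so the sizes of these gaps cannot be compared with it.

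Genes related to the 4 by family or pathway were counted at 0 to 48 h and at 72 and 96 h. Beside them, the median difference over all 11910 features was 0.04 at 0 to 48 h and 0.09 at 72 and 96 h. The shares of all features called were 28.4% higher and 24.3% lower at 0 to 48 h, and 9.98% higher and 9.29% lower at 72 and 96 h. Of the ubiquitin-specific proteases other than USP40, 16 were higher and 3 lower of 37 tested at 0 to 48 h, with a median of 0.20, against 28.4% and 24.3% of all features. USP4 (0.77 ± 0.09), USP9X (0.77 ± 0.09) and USP34 (0.56 ± 0.10) stood furthest above control, and USP2 (-0.57 ± 0.12) and USP25 (-0.46 ± 0.11) were among those below it. At 72 and 96 h 9 were higher and 0 lower of 37 (median 0.35), against 9.98% and 9.29% of all features, and 5 were higher without treated replicate 2 of 72 h or with no intensity trend.

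MGP carries a vitamin K-dependent modification. GGCX and VKORC1, genes of the vitamin K cycle, had no feature, so the counts speak mainly of other Gla proteins. Of 17 listed genes of the cycle and other Gla proteins, 7 were tested. At 0 to 48 h 1 was higher and 2 lower (median -0.24), among them PRRG1, a membrane Gla protein gene, at 0.74 ± 0.12, and PROS1, the protein S gene, at -0.83 ± 0.14. Of all features 28.4% were called higher and 24.3% lower. The lower count was 1 without treated replicate 2 or control replicate 2 of 0 h, treated replicate 1 or control replicate 2 of 24 h, or control replicate 1 of 48 h. The higher count was 2 without control replicate 1 of 24 h and with a replicate block. At 72 and 96 h 0 were higher and 1 lower, and 2 were lower without treated replicate 1 of 72 h. Of the regulators of mineralisation, 2 were higher and 5 lower of 11 at 0 to 48 h (median -0.30), against 28.4% and 24.3% of all features. The higher count was 1 with no filter and without any one of 7 libraries (both treated replicates and control replicate 2 of 0 h, and replicate 2 of each arm at 24 and at 48 h), and the lower count was 3 without treated replicate 2 of 0 h. SPP1, the osteopontin gene, stood at 42.6 ± 11.7 RPKM in treated and 250 ± 104 RPKM in control samples (SD, n = 6 each; -2.47 ± 0.19, limma adjusted p = 4.90e-07). BMP4, a bone morphogenetic protein gene, stood at 3.73 ± 1.17 RPKM in treated and 20.0 ± 5.31 RPKM in control samples (-2.15 ± 0.13), RUNX2, a bone transcription factor gene, at -0.83 ± 0.17 and ABCC6, a transporter gene, at 0.46 ± 0.11. At 72 and 96 h 0 were higher and 3 lower of 11.

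ABI3BP and MGP code for secreted matrix proteins, and most other secreted matrix glycoprotein genes that passed were lower. At 0 to 48 h 1 was higher and 18 were lower of 29 tested, with a median of -0.56, where 28.4% of all features were called higher and 24.3% lower. At 72 and 96 h 1 was higher and 11 were lower (median -0.68), where 9.98% and 9.29% of all features were. The higher count was 2 at both with a replicate block, at 0 to 48 h without control replicate 2 of 24 h, and at 72 and 96 h without treated replicate 2 of 72 h. VTN, the vitronectin gene, stood at -2.22 ± 0.18, FN1, the fibronectin gene, at -1.85 ± 0.30 and LTBP2, which codes for a latent TGF-beta binding protein, at -1.73 ± 0.13, while THBS2, a thrombospondin gene, was higher (0.48 ± 0.14). In the ABI and WAVE complex, to which the partner of ABI3BP belongs, 4 were higher and 2 lower of 8 at 0 to 48 h (median 0.17), against 28.4% and 24.3% of all features. The partner itself, ABI3, had a feature but did not pass the filter on low values, so these counts do not cover it. ABI1 stood at 0.90 ± 0.09 and WASF1 at -2.03 ± 0.13. At 72 and 96 h 2 were higher and 1 lower, and 1 was higher without either treated replicate of 72 h, with rescaled libraries or with no intensity trend.

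The CAP family holds the proteins that bind MSMB in humans. Its genes CRISP1, CRISP2, CRISP3 and GLIPR1 had no feature, so the counts speak only of other members. At 0 to 48 h 1 was higher and 3 were lower of 5 tested (median -0.65), against 28.4% and 24.3% of all features, and at 72 and 96 h 0 were higher and 0 lower by limma (0 and 1 at a limma p under 0.05 before adjustment). The higher count at 0 to 48 h ran from 0 to 1 over 19 alternatives. PI16, a binding partner of MSMB in humans, stood at 0.542 ± 0.370 RPKM in treated and 1.59 ± 1.05 RPKM in control samples (SD, n = 6 each; -0.65 ± 0.12, limma adjusted p = 0.000633). CRISPLD2 (-1.66 ± 0.13) and GLIPR2 (-0.82 ± 0.09) were lower too.

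**Figure D4:**
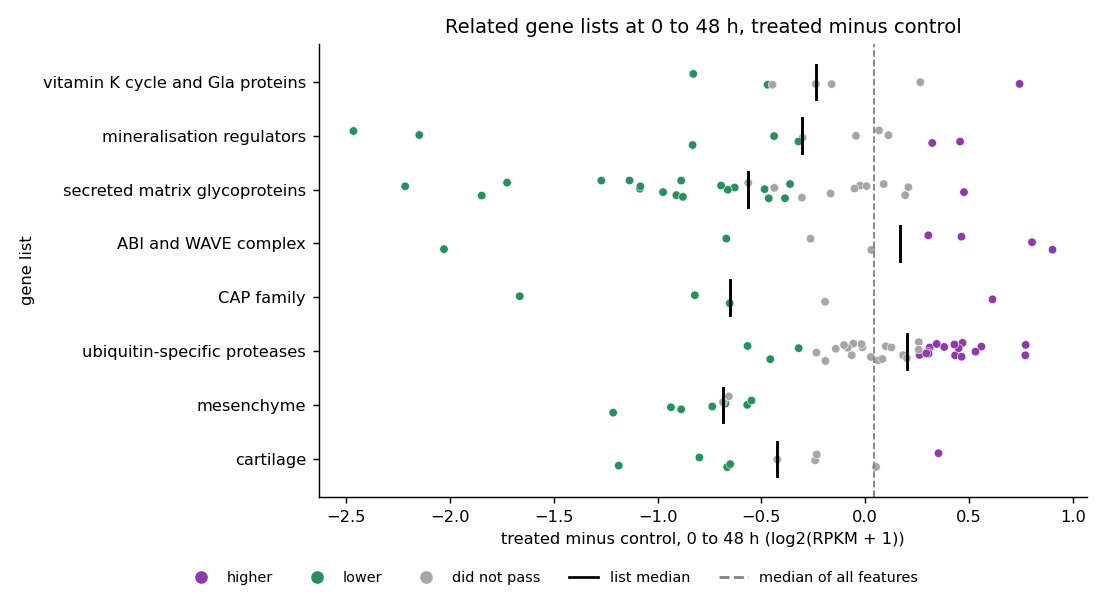
Treated minus control difference at 0 to 48 h (log2(RPKM + 1) scale) of the tested genes of 8 lists, 1 point for each gene, with the list median as a black bar and the median of all features as a dashed line. The medians of the ubiquitin-specific proteases (0.20) and of the ABI and WAVE complex (0.17) lie to the right of the dashed line, and those of the other 6 lists lie to its left.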

How the data were processed

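RNA sequencing of total RNA from 28 chicken basilar papilla samples was used. The authors deposited RPKM values in 1 table, beside the number of alignments for every library. The submitters' processing notes name 2 programs, TopHat 1.4.0 and Partek 6.6, with no roles. Build, annotation and strand were not given in the sources used here. No positions are therefore reported, and without reads per gene there are no counting intervals. Of 32 columns, 4 match no sample and were not used. By their names these 4 columns are a replicate 2 for each of the 4 groups with 1 sample. The lone values of those groups were not checked against them.

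Titles gave each sample's treatment and time. The genes, lists and tests were chosen with earlier results of these data known. A feature was kept where 2 or more of the samples fitted had an RPKM of 1 or more. A model in limma 3.58.1 (R 4.3.3) was fitted to log2(RPKM + 1), with 1 mean for each of 10 groups at 0 to 96 h, 17 samples, 7 residual degrees of freedom, eBayes with an intensity trend, two-sided p-values and Benjamini-Hochberg adjustment over 11910 features. The late count used all 28 samples. The code was tested on simulated data. Steps between single times, and differences between them, were chosen after seeing the values. The main model did not pair the samples. Only in the replicate block were sample numbers taken to pair the arms: the change from sample 1 to sample 2 in treated papillae correlated across features with that in control papillae at 0.31 (0 h), 0.296 (24 h), 0.105 (48 h), 0.487 (144 h) and 0.418 (168 h).

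Of 200 listed genes 161 matched a feature, 0 by a synonym. From each list, up to 3 genes in each direction with the largest called difference at 0 to 48 h could be named, and those whose call ended under an alternative are not. For each gene the 5 features with the highest Pearson r were named. Alternatives were a pseudocount of 0.1, no filter, median-of-ratios rescaling, no intensity trend, a replicate block within each time, all 28 samples or only those at 0 to 48 h in the fit, 144 and 168 h only for the late description, and leaving out each library.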

Additional observations from a re-analysis of the deposited data

Results flagged for a closer look

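In 5 results the difference between treated and control papillae was not the same at different times, by a test of that change. The changes between single times were chosen for test after their values were seen. ABI3BP changed between 0 and 24 h and 72 and 96 h by 2.65 ± 0.26 more in treated than in control papillae (limma adjusted p = 0.000213), and MSMB by 1.27 ± 0.29 more (adjusted p = 0.0167). The USP40 difference moved by -2.67 ± 0.32 between 0 and 24 h (limma adjusted p = 0.00146), with 2 of 2 treated samples above both controls at 0 h and 2 of 2 below at 24 h. It was among the 6.11% of features called lower in that comparison, and this change cannot tell streptomycin apart from time since dissection.

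The MSMB difference moved by 1.62 ± 0.35 between 0 and 24 h (limma adjusted p = 0.0140), where 3.96% of features were called higher. This call ended with a pseudocount of 0.1 (adjusted p = 0.0526), with all 28 samples in the fit (0.154), without treated replicate 1 of 0 h (1.54, adjusted p = 0.0572) and without control replicate 1 of 0 h (1.31, limma adjusted p = 0.0662). The ABI3BP difference moved by 1.91 ± 0.32 between 24 and 48 h (limma adjusted p = 0.0318), where 0.193% of features were called higher. It did not pass with a pseudocount of 0.1 (adjusted p = 0.0558) or with no filter (0.101). Nor did it pass without treated replicate 1 (1.81) or control replicate 1 (1.58) of 24 h, treated replicate 1 (1.99) or 2 (1.83) of 48 h, or control replicate 1 (1.90) or 2 (1.92) of 48 h (limma adjusted p 0.097 to 0.165).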

How the results depend on the processing

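Differences are on the log2 scale, and the cause of each change was not tested. With a pseudocount of 0.1, the MSMB values that no longer passed were 1.54 (time change between arms) and 1.61 (96 h). ABI3BP at 120 to 168 h was 2.67 with that pseudocount, against 1.46 with the main pseudocount of 1. From 144 and 168 h only, with the main pseudocount, it was 1.15. With no filter, MGP no longer passed at -1.17 (0 to 48 h), 2.19 (control time change) and -2.33 (24 h), nor MSMB at 1.35 (96 h). With all 28 samples in the fit, USP40 at 0.849 (72 and 96 h) and -0.756 (24 h) and MSMB at 1.27 (time change between arms) and 1.35 (96 h) no longer passed. With rescaled libraries USP40 passed at -0.64 (48 h), MSMB at 1.27 (96 h) did not, and calls numbered 756 lower (time change between arms), 387 lower (96 h, against 253) and 1154 higher (120 to 168 h).

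With the replicate block, USP40 passed at -0.611 (48 h), 1.06 (72 h) and 0.967 (96 h), and MGP at -0.803 (48 h) and 1.47 (time change between arms). The block turned MGP to 0.114 at 72 and 96 h and to -1.26 for 24 h minus 0 h in control papillae. In the block fit a step within 1 arm compares levels fitted for replicate 1. The -1.26 is therefore no estimate of the step between group means. It gave 1608 higher and 1129 lower (time change between arms, against 797 and 357), 569 higher and 472 lower (96 h, against 222 and 253) and 862 higher (120 to 168 h, against 525). At 0 to 48 h the higher counts of the vitamin K and secreted matrix lists became 2 each. The block fit leaves 3 residual degrees of freedom. At 72 h only treated papillae have a replicate 2, so the block there acts as leaving it out, and at 96 h it adjusts nothing.

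With each library left out in turn, ABI3BP ran from -0.0588 to 0.16 (0 to 48 h), -0.958 to -0.567 (0 h) and -0.826 to -0.169 (24 h). MGP ran from -1.6 to -0.739 (0 to 48 h), -1.67 to 0.917 (0 h), -2.83 to -1.83 (24 h), -0.136 to 0.114 (72 and 96 h) and 0.696 to 1.99 (time change between arms). MSMB ran from -0.364 to 0.256 (0 h), and USP40 from -0.833 to -0.68 (24 h) and 0.406 to 1.06 (72 h). Of the steps between single times, ABI3BP ran from -0.141 to 0.25 (treated) and -0.538 to 0.118 (control) for 24 h minus 0 h, and from -0.0633 to 0.593 for their difference. MGP ran from -0.658 to 0.842 (control, 24 h minus 0 h) and USP40 from -0.0337 to 0.325 (24 h to 48 h, between arms). Counts ran from 585 to 836 higher and 796 to 889 lower (0 h, against 1685 and 1390), 1125 to 2579 higher (24 h, against 2274), 626 to 846 higher and 831 to 1094 lower (48 h, against 1640 and 1721) and 589 to 996 lower (72 h, against 962). For the time change they ran from 1085 to 2026 lower (treated, against 1652), and from 510 to 1149 higher and 183 to 666 lower between arms. Of the list counts, that of the ubiquitin-specific proteases higher at 72 and 96 h ran from 5 to 12 over 8 alternatives. Leaving out a lone sample gave no value for the comparisons that use it.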
